A study of Homo sapiens with 6 samples.

Results

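The 40 genes described here encode the core machinery of macroautophagy and its cargo receptors. They were chosen by symbol for their place in the pathway, by a rule that uses no measured value, but with earlier results of these data known. The genes follow the pathway from the initiating kinase to fusion with the lysosome. The deposited tables list 20461 genes with an Ensembl identifier, and 13645 of these had enough counts to be tested. All 40 autophagy genes were among them, so no member was lost to the filter on low counts.

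RNA sequencing had been performed on ARPE-19 cells, an established human retinal pigment epithelial (RPE) cell line. Both groups were kept in 37.5 mM glucose for 48 h and carried a lentivirus introduced at a multiplicity of infection of 10, followed after 48 h by selection with 4 µg/ml puromycin. The control group (n = 3 libraries) carried a control lentivirus, and the PDZK1 group (n = 3 libraries) carried one for overexpression of PDZK1, which encodes a scaffold with PDZ domains. The comparison asks what forced PDZK1 expression does to the transcripts of cells under high glucose. The libraries were made in bulk from a single line, and no normal-glucose library was analysed here. The promoter of the transgene is not given in the sources used here, and the number of separate transductions is not stated. The p-values therefore set the group difference against the spread between these libraries, which may be technical.

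Macroautophagy encloses cytoplasm in a double membrane that grows from a phagophore into an autophagosome and then fuses with the lysosome. The ULK kinase complex starts the process when the growth kinase mTORC1 is inactive, a lipid kinase complex marks the membrane with phosphatidylinositol phosphate, and a ubiquitin-like conjugation system couples proteins of the ATG8 family (LC3 and GABARAP) to the membrane lipid phosphatidylethanolamine. Cargo receptors such as p62 bind ubiquitinated material and LC3 at the same time, and RPE cells depend on autophagy and a related LC3 pathway to digest worn photoreceptor outer segments.

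In the ATG8 family, near-identical copies bear on what the counts can resolve, and the coding sequences of one such pair are shown for that reason. MAP1LC3B has 4 coding exons on chromosome 16 (GENCODE 29 on GRCh38, 87392428 to 87403097, plus strand), and MAP1LC3B2 has 1 coding exon on chromosome 12 (116575943 to 116576320, plus strand). The first 60 and the last 60 coding bases of both genes are printed, since these hold every difference between them, and capitals mark the bases that differ.
MAP1LC3B, coding bases 1 to 60: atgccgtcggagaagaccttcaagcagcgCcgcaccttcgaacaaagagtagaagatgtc
MAP1LC3B2, coding bases 1 to 60: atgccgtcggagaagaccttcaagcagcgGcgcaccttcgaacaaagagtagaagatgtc
MAP1LC3B, coding bases 319 to 378: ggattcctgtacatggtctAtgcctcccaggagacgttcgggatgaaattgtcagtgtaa
MAP1LC3B2, coding bases 319 to 378: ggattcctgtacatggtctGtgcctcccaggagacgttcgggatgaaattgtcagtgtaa
The 378 coding bases were 99.5% identical. The 2 differences are C30G and A338G, with the MAP1LC3B base first, the MAP1LC3B2 base last and positions counted from 1 at the A of the start codon. The longest stretch without a difference is 307 bases, so short reads within it cannot be assigned to either gene, and the values of MAP1LC3B2 in particular are uncertain. MAP1LC3A, by contrast, was 72.9% identical to MAP1LC3B over the aligned coding bases, and the longest run shared by both was 20 bases.

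Total counts ran from 27970618 to 32804567 per library. PDZK1 had 19, 18 and 23 counts in controls and 3020, 2541 and 2828 with PDZK1, a log2 fold change of 7.03 ± 0.13 (SE), so the overexpressed gene followed the labels in all 6 libraries. Control replicate 3 stood apart from its group on the second principal component (21.1% of the variance). Members whose sign or call changed without it are given with and without it. Of 12 RPE markers, 9 were above the limit of 3 counts in at least 1 library, and their levels differed widely. KRT8 (531 to 613 FPKM) and OTX2 (20.3 to 26.9 FPKM) were among the higher ones. RLBP1 (1.78 to 3.03 FPKM) and PMEL (0.704 to 1.31 FPKM) were low, and RPE65, TTR and TYR were at or under 3 counts in all 6 libraries. The summed FPKM of the 12 markers was 1095 to 1251 in controls and 1154 to 1297 with PDZK1, most of it from KRT8 and KRT18. BEST1 had 11459 counts (77.5 FPKM) in PDZK1 replicate 1 and 124 to 181 counts in the other libraries, an exon of it overlaps FTH1 on the opposite strand, and SERPINF1 was at 0.742 to 0.852 FPKM in controls and 0.431 to 0.590 FPKM with PDZK1 (log2 fold change -0.83, adjusted p = 0.294). Their part in the results on the autophagy genes was not tested. PTPRC of leukocytes had a count of 0 in all 6 libraries, and PECAM1 of endothelium had 0 to 6 counts. Over all genes, 3.83% passed an adjusted p of 0.05 (edgeR quasi-likelihood test, two-sided, Benjamini-Hochberg), 193 higher and 329 lower with PDZK1 (241 and 276 when scaled by library totals only).

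The autophagy genes were expressed at very different levels in these cells. Levels between genes were compared as FPKM, which corrects fragment numbers for library size and transcript length. SQSTM1, which encodes the receptor p62, was the highest at 587.9 to 664.7 FPKM over the 6 libraries. GABARAP followed at 208.2 to 225.3 FPKM and MAP1LC3B at 89.5 to 94.0 FPKM, and none of these ranges overlapped its neighbour in the order. OPTN (70.9 to 86.8 FPKM) and TAX1BP1 (68.3 to 82.8 FPKM), both receptors for ubiquitinated cargo, overlapped each other. Over the whole order, 29 of the 39 neighbouring pairs had overlapping ranges. ATG10 (mean of 3.14 FPKM), MAP1LC3A (4.06 FPKM) and MAP1LC3B2 (4.11 FPKM) had the lowest means over the 6 libraries. In controls alone MAP1LC3A stood at 5.38 FPKM, above UVRAG (4.21 FPKM), MAP1LC3B2 (4.37 FPKM), ATG2B (4.40 FPKM) and ATG4C (4.48 FPKM). For comparison between groups, counts were scaled to library size (CPM), and the median member had 63.1 CPM against 29.4 CPM for all tested genes. The median standard error of the log2 fold change was 0.057 for the members and 0.075 for all tested genes.

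**Figure D1:**
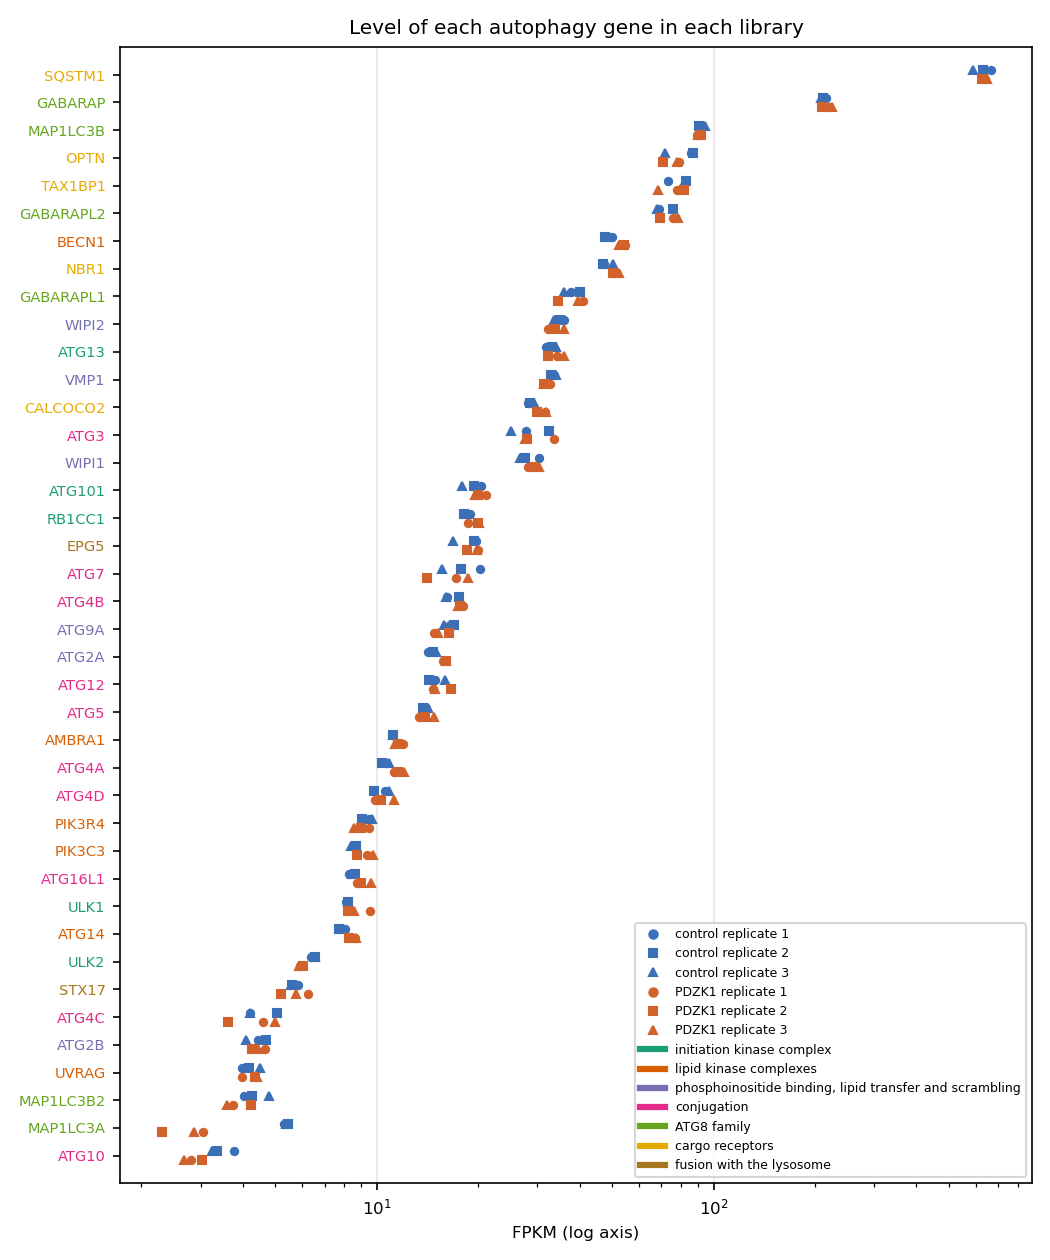
FPKM of each of the 40 autophagy genes on a log axis, 1 point per library, with control and PDZK1 libraries marked apart and genes coloured by step of the pathway. SQSTM1 lay above all others at 587.9 to 664.7 FPKM, and the groups of MAP1LC3A and ATG10 did not overlap at the low end.

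PDZK1 overexpression was accompanied by lower MAP1LC3A and ULK2 transcripts, and no other autophagy gene passed the threshold. These 2 of 40 genes (5.0%) are read against the 3.83% of all genes, so the share was near the background. Both were lower (5.0% of members against 2.41% of all genes), and 0 members passed the threshold as higher (1.41% of all genes). At an unadjusted edgeR p under 0.05 there were 4 higher members (10.0%, against 8.13% of all genes) and 5 lower members (12.5%, against 9.37%). The libraries of the groups did not overlap in CPM for 11 members (27.5%, against 23.9% of all genes), of which 7 were higher (17.5%, against 11.6% of all genes) and 4 that were lower (10.0%, against 12.3%). Without control replicate 3, 3 members passed the threshold (7.5%, against 6.32% of all genes), all of them lower (against 3.81%), and 0 were higher (against 2.51%).

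Most of the machinery was measured precisely enough to bound a difference between these libraries. Like the p-values, the intervals rest on the spread between libraries, which may be technical. The 95% interval lay within a 1.5-fold change in either direction for 39 of the 40 members (97.5%), with MAP1LC3A as the exception. That was so for 78.4% of all tested genes and for 91.8% of those at or above the mean CPM of the lowest member. The log2 fold change was above 0 for 22 members (55.0%, against 49.9% of all genes) and below 0 for 18, its median was 0.023 (all genes -0.00025), and it ran from -0.98 for MAP1LC3A to 0.15 for ATG4A. The size of the log2 fold change was under 0.1 for 30 members (75%), against 55.7% of all tested genes. This share was not matched for level, and the median member had 63.1 CPM against 29.4 CPM for all tested genes.

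**Figure D2:**
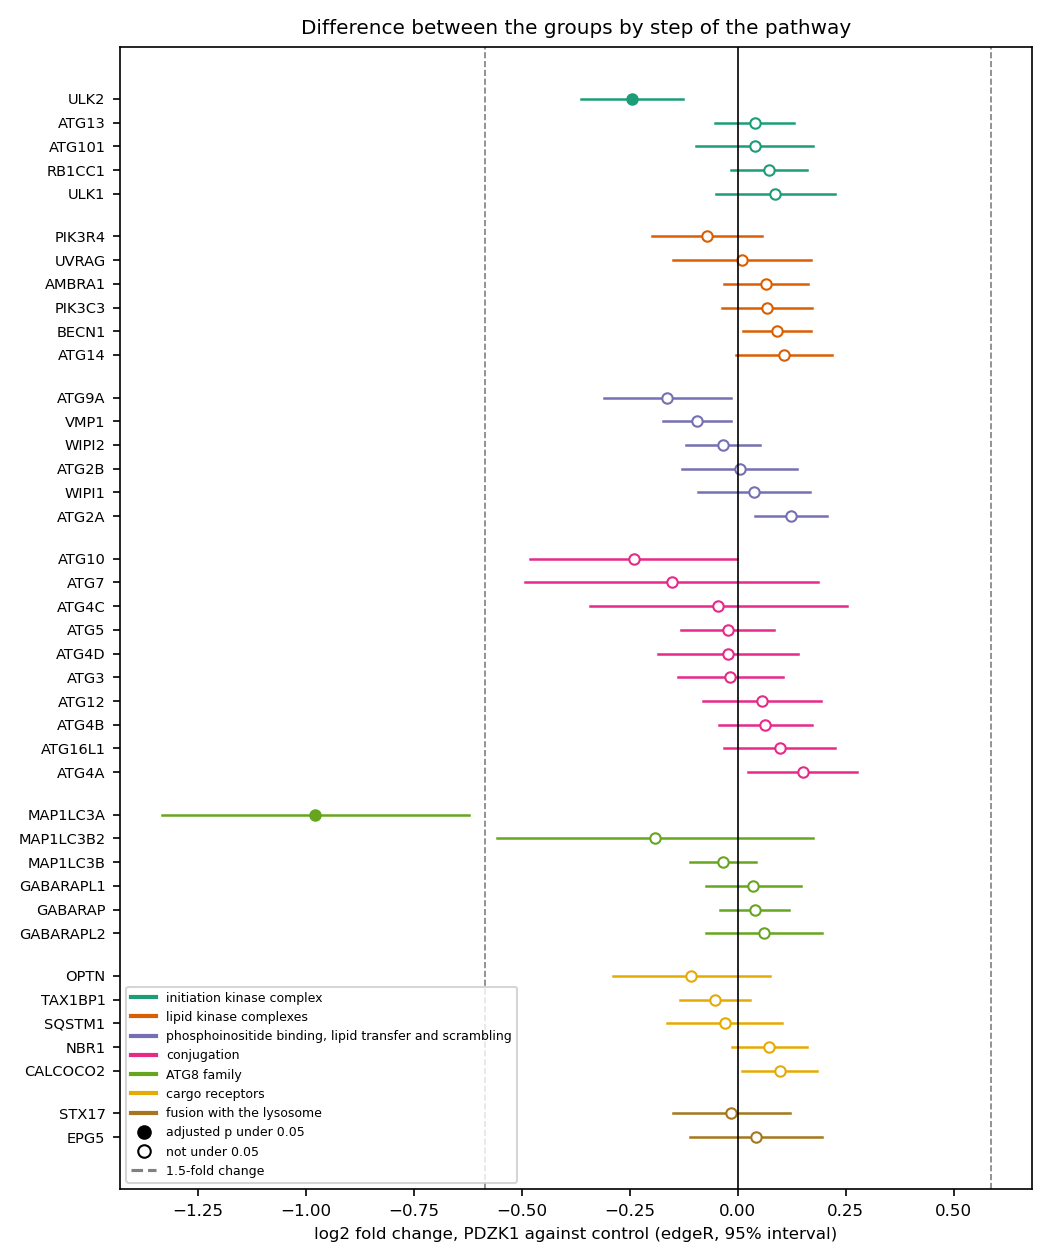
Log2 fold change (PDZK1 over control) of the 40 autophagy genes with its 95% interval from the edgeR model, grouped by step of the pathway, with filled points for an adjusted p under 0.05 and dashed lines at a 1.5-fold change. MAP1LC3A (-0.98) and ULK2 (-0.25) are the filled points, and MAP1LC3A has the one interval that leaves the dashed lines.

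In the initiation complex, ULK2 was lower with PDZK1 and the other 4 genes did not pass the threshold. ULK2 encodes a kinase that, like its paralogue ULK1, starts autophagosome formation. It lies on chromosome 17 (19770829 to 19867936, minus strand, ENSG00000083290). The CPM of ULK2 was 59.5, 59.1 and 60.2 in controls and 48.7, 49.0 and 53.1 with PDZK1. The groups did not overlap, and PDZK1 replicate 3 was the nearest to the controls. This was a log2 fold change of -0.25 ± 0.052 (SE), with a 95% interval of -0.36 to -0.13 and an adjusted p of 0.0325. As bulk libraries cannot separate fewer cells carrying a transcript from less of it per cell, this and every other difference here is one of the culture as a whole.

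The ULK2 call depended on the unit and on the libraries. Leaving out control replicate 1 gave an adjusted p of 0.0826, control replicate 2 gave 0.113, PDZK1 replicate 1 gave 0.148 and PDZK1 replicate 2 gave 0.108, while the log2 fold change stayed between -0.29 and -0.22. It was past the threshold without control replicate 3 and without PDZK1 replicate 3. On the log2(FPKM + 1) scale the difference was -0.11 with an adjusted p of 0.363 (limma), and the FPKM of ULK2 were 6.38, 6.56 and 6.54 against 5.91, 6.03 and 5.88. The FPKM of the groups did not overlap either.

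ULK1 had 46.9, 47.8 and 47.8 CPM in controls and 54.8, 47.5 and 49.0 CPM with PDZK1, a log2 fold change of 0.086 that did not pass the threshold (adjusted p = 0.527, edgeR). These groups overlapped. The ratio of ULK1 to ULK2 counts was 0.789, 0.809 and 0.795 in controls and 1.13, 0.970 and 0.923 with PDZK1. As FPKM, which are comparable between genes, the ratio was 1.27, 1.26 and 1.26 in controls and 1.61, 1.36 and 1.45 with PDZK1. On either scale it was higher in every PDZK1 library than in any control library, and no test of it was made beyond those of its parts. ATG13, ATG101 and RB1CC1 (also called FIP200) encode the scaffold that holds the kinase. Their log2 fold changes were 0.039, 0.039 and 0.072, and none of them passed the threshold.

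None of the 6 genes of the lipid kinase complexes passed the threshold, and 3 of them had groups that did not overlap (23.9% of all genes had such groups). BECN1, the regulatory subunit Beclin 1, had 109.1, 105.5 and 105.5 CPM in controls and 111.9, 116.0 and 112.9 CPM with PDZK1. All PDZK1 libraries were above all controls, with a log2 fold change of 0.090 (95% interval 0.013 to 0.17) and an adjusted p of 0.210. ATG14, which directs the complex to the sites of autophagosome formation, had 39.6 to 41.1 CPM in controls and 42.3 to 44.3 CPM with PDZK1 (log2 fold change 0.11, adjusted p = 0.307). AMBRA1, a binding partner of Beclin 1, had 59.5 to 59.9 CPM against 62.2 to 62.7 CPM (log2 fold change 0.065, adjusted p = 0.498). The catalytic subunit PIK3C3 (0.068), its regulatory subunit PIK3R4 (-0.072) and UVRAG (0.0095), which joins the complex in place of ATG14, had log2 fold changes that did not pass the threshold.

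The genes for reading the lipid mark and supplying membrane did not pass the threshold in any of 6 cases. ATG2A, a bridge-like protein that carries lipid into the growing membrane, had 97.2, 99.0 and 102.2 CPM in controls and 105.9, 110.0 and 109.1 CPM with PDZK1. Its groups did not overlap, and it had the smallest adjusted p of the 38 members that were not called (log2 fold change 0.12, 95% interval 0.040 to 0.21, adjusted p = 0.110). Its paralogue ATG2B had a log2 fold change of 0.0039, which was -0.045 without control replicate 3. VMP1, a scramblase of the endoplasmic reticulum, had 132.9, 132.9 and 137.3 CPM against 129.6, 124.4 and 123.5 CPM. The PDZK1 libraries lay below the controls (log2 fold change -0.094, adjusted p = 0.192), and an exon of VMP1 overlaps the microRNA gene MIR21 on the same strand, so reads may be shared. ATG9A, the scramblase of autophagic vesicles, had 65.4, 68.9 and 65.3 CPM against 56.1, 65.5 and 56.7 CPM. PDZK1 replicate 2 was within the control range, and the log2 fold change of -0.16 did not pass the threshold (adjusted p = 0.230). An exon of ATG9A overlaps the protein-coding gene AC068946.2 on the same strand, so reads may be shared here too. WIPI1 (0.038) and WIPI2 (-0.034), which bind the lipid mark, had log2 fold changes near 0. The value of WIPI1 was -0.0073 without control replicate 3.

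The conjugation genes, which attach the ATG8 proteins to the membrane, held 10 members and none passed the threshold. ATG5, part of the complex that completes the attachment, had 47.0, 46.8 and 47.7 CPM in controls and 45.0, 46.9 and 47.3 CPM with PDZK1. The groups overlapped, and the log2 fold change was -0.024 (95% interval -0.13 to 0.085, adjusted p = 0.856). ATG4A, a protease that trims and releases ATG8 proteins, had 25.5, 24.8 and 25.9 CPM against 27.6, 29.02 and 27.9 CPM. All PDZK1 libraries were above the controls (log2 fold change 0.15, adjusted p = 0.199). ATG10, the enzyme that joins ATG12 to ATG5, had 8.45, 7.96 and 7.94 CPM against 6.49, 7.02 and 7.09 CPM. All PDZK1 libraries were below the controls (log2 fold change -0.24, 95% interval -0.48 to -0.0017), but the adjusted p was 0.282. An exon of ATG10 overlaps RPS23 on the opposite strand, so reads may be shared if strand was not used.

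Among the remaining conjugation genes, ATG4B and ATG16L1 also had groups that did not overlap, as did 23.9% of all genes. ATG4B, the most active of the ATG4 proteases, had 45.4 to 47.7 CPM in controls and 48.3 to 49.3 CPM with PDZK1 (log2 fold change 0.063, adjusted p = 0.558). ATG16L1, which brings the ATG12-ATG5 conjugate to the membrane, had 29.5 to 30.5 CPM against 30.7 to 33.7 CPM (log2 fold change 0.097, adjusted p = 0.434). ATG7, the activating enzyme of both conjugation reactions, had 73.5, 86.2 and 77.2 CPM against 85.3, 66.9 and 60.8 CPM, and the groups overlapped. Its log2 fold change of -0.15 had a 95% interval of -0.49 to 0.19. This value became -0.31 when PDZK1 replicate 1 was dropped. It became -0.053 when PDZK1 replicate 3 was dropped and -0.086 when control replicate 2 was, and none of these passed the threshold. ATG3, ATG4C, ATG4D and ATG12 had log2 fold changes of -0.017, -0.045, -0.023 and 0.057, and the CPM of their groups overlapped.

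Of the 6 ATG8 family genes, MAP1LC3A was lower with PDZK1 and the other 5 did not pass the threshold. MAP1LC3A encodes LC3A, one of the proteins that coat the autophagosome membrane, and lies on chromosome 20 (34546854 to 34560345, plus strand, ENSG00000101460). It had 180, 178 and 156 counts in controls and 103, 79 and 95 counts with PDZK1. Scaled for depth, these were 5.57, 5.76 and 5.65 CPM against 3.21, 2.41 and 2.99 CPM. The groups were far apart, with the highest PDZK1 library well below the lowest control library. The level was 0.508 times that of the controls, a log2 fold change of -0.98 ± 0.16 (SE) (95% interval -1.33 to -0.62), with an adjusted p of 0.0100. Leaving out 1 library at a time moved the log2 fold change between -1.06 and -0.86. The call was lost without control replicate 2 (adjusted p = 0.0580) and was kept without each of the other libraries. No exon of MAP1LC3A overlaps another annotated gene, and the 82 tested genes within 5 Mb on either side had a median log2 fold change of -0.013.

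MAP1LC3B, which encodes the LC3B protein most often blotted for autophagy, had 212.8, 213.0 and 221.1 CPM in controls and 208.3, 215.3 and 208.1 CPM with PDZK1. The groups overlapped and the interval of the difference was narrow (log2 fold change -0.035, 95% interval -0.11 to 0.041, adjusted p = 0.668). MAP1LC3B2 had 3.62, 3.82 and 4.31 CPM against 3.31, 3.78 and 3.19 CPM (log2 fold change -0.19, 95% interval -0.56 to 0.17). GABARAP had 290.5, 280.6 and 281.1 CPM against 291.6, 283.5 and 300.2 CPM, and its groups overlapped. GABARAP, GABARAPL1 and GABARAPL2, the other branch of the family, had log2 fold changes of 0.039, 0.036 and 0.060, and none passed the threshold.

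MAP1LC3A is among the lowest members and made up a small share of the ATG8 family transcripts. The FPKM of the 6 genes summed to 422 ± 5.68 (SD, n = 3) in controls and 429 ± 14.0 with PDZK1. MAP1LC3A made up 1.28% ± 0.015 of that sum in the controls and 0.637% ± 0.075 with PDZK1. GABARAP made up 50.2% ± 0.874 and 51.1% ± 0.203, and MAP1LC3B 21.7% ± 0.751 and 21.1% ± 1.02. The ratio of MAP1LC3B to MAP1LC3A FPKM was 17.0, 16.6 and 17.5 in controls and 29.3, 40.1 and 31.3 with PDZK1, with no overlap. These shares and ratios are descriptions, and no test was made of them.

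**Figure D3:**
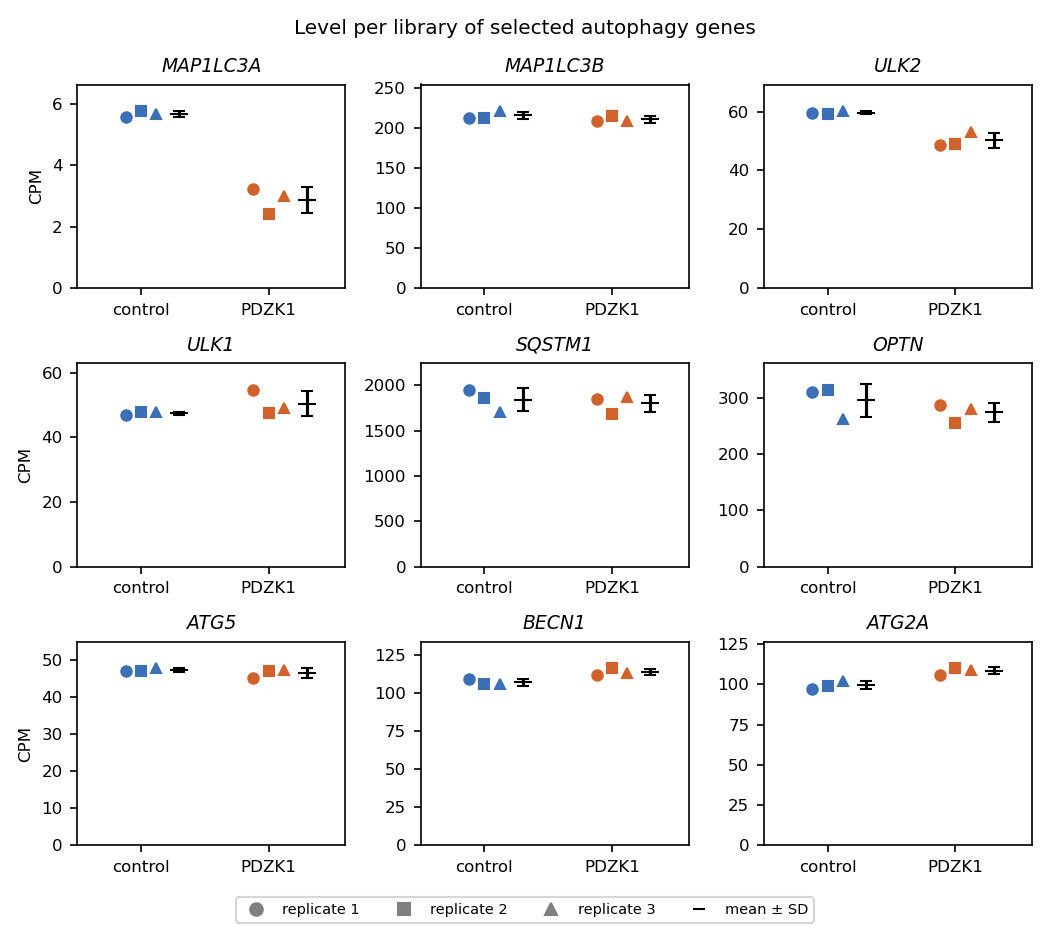
CPM of 9 autophagy genes in each library, with the mean and SD of each group (n = 3), axes starting at 0. MAP1LC3A (5.57 to 5.76 against 2.41 to 3.21 CPM) and ULK2 (59.1 to 60.2 against 48.7 to 53.1 CPM) separate the groups. BECN1 (105.5 to 109.1 against 111.9 to 116.0 CPM) and ATG2A (97.2 to 102.2 against 105.9 to 110.0 CPM) also do, without passing the threshold. The groups of ULK1, SQSTM1, OPTN, MAP1LC3B and ATG5 overlap.

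None of the 5 cargo receptor genes passed the threshold in the 6 libraries. SQSTM1 had 1951, 1863 and 1701 CPM in controls and 1844, 1688 and 1867 CPM with PDZK1. The groups overlapped, with a log2 fold change of -0.031 (95% interval -0.16 to 0.10, adjusted p = 0.846), and its sign turned on the FPKM scale (0.028). CALCOCO2, which encodes the receptor NDP52, had 109.6, 110.7 and 115.6 CPM against 121.2, 115.3 and 122.7 CPM. PDZK1 replicate 2 fell just below the highest control, and the log2 fold change of 0.097 did not pass the threshold (adjusted p = 0.228). OPTN, the receptor optineurin, had 309.7, 314.6 and 261.8 CPM against 287.1, 255.6 and 279.8 CPM. The low control value was replicate 3, and the log2 fold change of -0.11 (adjusted p = 0.542) became -0.19 (adjusted p = 0.0451) without it. TAX1BP1 had 239.7, 242.8 and 255.0 CPM against 233.3, 237.4 and 240.2 CPM, with overlapping groups. NBR1 (0.073) and TAX1BP1 (-0.053) had log2 fold changes that did not pass the threshold.

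**Figure D4:**
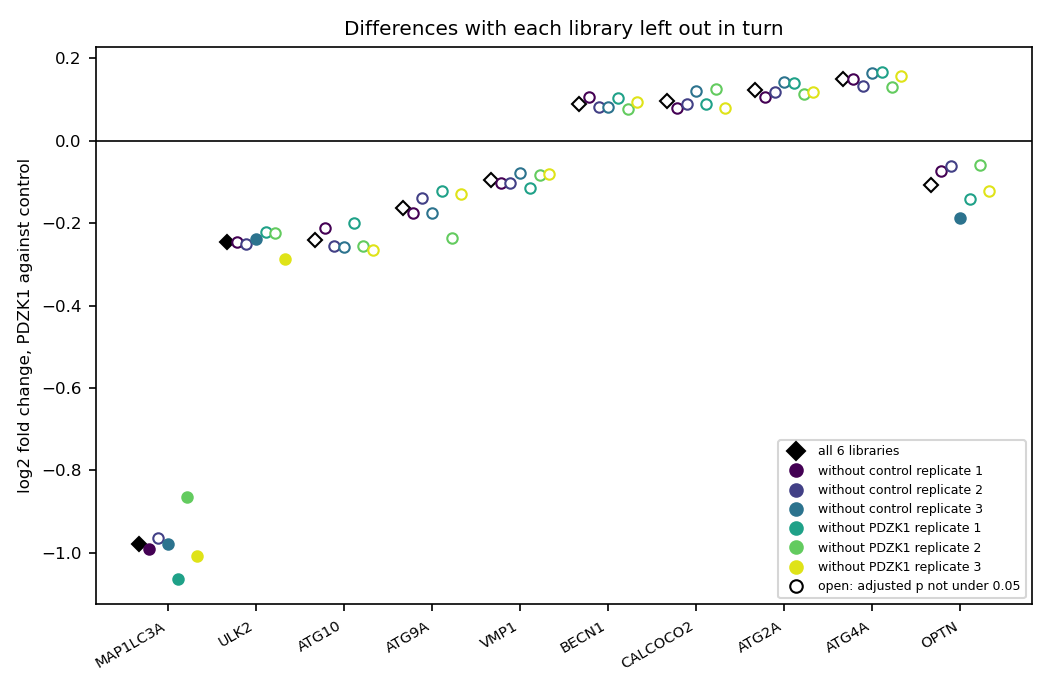
Log2 fold change (PDZK1 over control) with all 6 libraries (diamonds) and with each library left out in turn (circles) for the 9 members at an unadjusted p under 0.05 and for OPTN, with filled symbols for an adjusted p under 0.05. MAP1LC3A stayed between -1.06 and -0.86, and OPTN is filled only without control replicate 3.

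For fusion with the lysosome, STX17, the syntaxin of the autophagosome, had a log2 fold change of -0.015 and EPG5, a tether between autophagosome and lysosome, had 0.041. Neither passed the threshold. EPG5 had 267.1, 266.3 and 225.1 CPM in controls and 266.0, 250.6 and 264.2 CPM with PDZK1. Control replicate 3 was again the low library, and the log2 fold change without it was -0.036.

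Control replicate 3, the library that stood apart, was the lowest of the 6 libraries for 8 members and the highest for 8. The other libraries were the lowest for 5 to 8 members each and the highest for 4 to 10. The median deviation of control replicate 3 from each gene's mean was -0.023 (log2 scale) over the members and -0.00037 over all genes. The medians of the other libraries over the members lay between -0.024 and 0.030. The median log2 fold change of the members turned from 0.023 to -0.0059 without it. PDZK1 replicate 3 was the highest library for 10 members.

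The counting program and the use of strand are not given in the sources used here. An exon of 21 members overlaps a gene on the opposite strand in GENCODE 29, an exon of 3 overlaps a gene on the same strand, and 6 have a numbered pseudogene. Among these, an exon of SQSTM1 overlaps MGAT4B and MRNIP on the opposite strand. The members with a same-strand overlap are VMP1, ATG9A and GABARAP, the last with the protein-coding gene AC120057.2. ULK2 and MAP1LC3A are among the 17 members with neither.

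TFEB and its relatives, master regulators of lysosomal and autophagy genes, bind motifs built around the E-box CACGTG, which reads the same on both strands. The motif was searched for in the 300 bases around each transcription start (250 before and 50 after) of the RefSeq genes on GRCh38.p14. It was found in 2 of 42 windows (4.76%) belonging to the 34 members that matched by symbol, those of ATG3 and ATG14, and in 7.26% of all 35116 windows. The members without a match by symbol were RB1CC1, UVRAG, ATG4D, MAP1LC3A, STX17 and EPG5. A match is a description of the letters in this window.

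Of 55 further autophagy genes (regulators, upstream kinases, fusion and selective autophagy), 52 were tested and 2 passed the threshold, against 3.83% of all genes. Without control replicate 3, 3 further genes passed it, against 6.32% of all genes. ATG9B (0 to 2 counts), MAP1LC3C (3 to 12 counts) and VAMP8 (5 to 13 counts) did not pass the filter. MTOR, the kinase that restrains the ULK complex, was lower, with 90.1, 86.6 and 80.6 CPM in controls and 72.2, 72.3 and 68.9 CPM with PDZK1 (log2 fold change -0.27, adjusted p = 0.0195). TOLLIP, an adaptor that can act as a receptor for ubiquitinated cargo, was higher, with 97.4, 98.3 and 95.8 CPM against 109.5, 108.6 and 112.5 CPM (log2 fold change 0.18, adjusted p = 0.0220). The groups of both genes did not overlap in CPM. As FPKM, those of MTOR did not overlap either. TOLLIP had 31.23, 26.9 and 27.85 FPKM in controls and 27.98, 31.95 and 32.64 FPKM with PDZK1, which overlapped.

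Most tested genes beside MTOR were lower and most beside TOLLIP were higher, although most of them did not pass the threshold. Of the 77 tested genes within 5 Mb of MTOR on chromosome 1, 74 were lower, 23 passed the threshold and the median log2 fold change was -0.23. The 70 tested genes within 5 Mb of TOLLIP on chromosome 11 had a median of 0.13, 12 of them were lower and 11 passed the threshold. Over all 13645 tested genes, 6837 were lower, 6808 were higher, 3.83% passed the threshold and the median was -0.00025. The part of the neighbourhood in the changes of MTOR and TOLLIP was not tested. The corresponding median around ULK2 was 0.032 over 60 genes. MTOR and TOLLIP both lost the call when any library other than control replicate 3 was left out, with adjusted p-values up to 0.106 and 0.120. On the log2(FPKM + 1) scale (limma) their differences were -0.24 and 0.10, and neither passed the threshold. The largest fall among the 52 genes was that of BNIP3, a mitophagy receptor, with 75.8, 92.6 and 96.4 CPM against 64.5, 81.0 and 58.9 CPM (log2 fold change -0.37). It did not pass the threshold (adjusted p = 0.292), the groups overlapped, and BNIP3 has 39 numbered pseudogenes in GENCODE 29.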

How the data were processed

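The authors deposited a table of estimated counts per gene and library, stored as whole numbers without scaling, and a table of FPKM, which the authors scaled by transcript length and mapped fragments. Per the submitters' processing notes, fastp 0.20.1, HISAT2 2.2.1 and GRCh38 were used. The counting program and strandedness are not given in the sources used here. In each table, 3 columns matched no sample and were not used. Of 21314 entries, 853 assembled loci (0.519% to 0.536% of counts) were left out.

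Genes passing filterByExpr (13645) were scaled by TMM and tested with edgeR 4.0.16 (robust quasi-likelihood, R 4.3.3), PDZK1 against control, two-sided, with no covariates. P-values were adjusted over these genes by the Benjamini-Hochberg method. CPM used TMM-scaled library sizes, and errors are SD over 3 libraries or model SE. Alternatives were DESeq2 1.42.0, other scalings and filters, limma 3.58.1 on log2(FPKM + 1) or log2(FPKM + 0.1), the replicate number as a block, and leaving out each library. Scripts were tested on simulated data.

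Members and the list of further autophagy genes were chosen with earlier results of these data known. Values in every library are given for members that passed the threshold or had an unadjusted p under 0.05, the 5 highest by FPKM, SQSTM1, MAP1LC3B and ATG5 (assayed as proteins by the study), and, chosen after their values were seen, ULK1, ATG7, MAP1LC3B2 and EPG5. Gene positions and coding sequences are from GENCODE 29 on GRCh38. Depth ran from 27970618 to 32804567 counts per library, and a count of 0 allows up to 3 counts, for counting error only.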

Additional observations from a re-analysis of the deposited data

How the results depend on the processing

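Of 560 member values recomputed (40 genes in 14 alternatives), 515 kept their direction and their side of the threshold. The median of all genes moved by at most 0.018 on the log2 scale under any scaling. PDZK1 passed the threshold in every alternative. Genes past the threshold numbered 793 with DESeq2, 191 with log2(FPKM + 1), 187 with log2(FPKM + 0.1), 184 with log2(FPKM + 1) and no filter, and 163 with the replicate block (159 shared with the 522). Leaving out 1 library gave 181 (without PDZK1 replicate 1) to 875 (without control replicate 3, 491 shared). Members past the threshold numbered 1 in each of the 3 FPKM fits, 0 with the replicate block and 0 to 3 with 1 library left out. With the replicate block, the adjusted p was 0.0578 for MAP1LC3A and 0.109 for ULK2. The further autophagy genes past the threshold numbered 0 in the FPKM fits, 0 with the block and 0 to 3 with 1 library left out.

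Same-numbered libraries did not deviate together (correlations of -0.0462, -0.056 and -0.143), and no library correlated best with its own number, so the numbers were not taken as pairs.

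The sign turned for 11 members, none of them past the threshold in any of those alternatives. With library totals only, ATG3 was at 0.00078 and STX17 at 0.0024. With log2(FPKM + 1), filtered or not, ATG3 was at 0.064, ATG4D at 0.0032, ATG5 at 0.0085, SQSTM1 at 0.028 and STX17 at 0.012, and with log2(FPKM + 0.1) they were at 0.066, 0.0034, 0.0090, 0.028 and 0.014. With 1 library left out, the ranges were -0.023 to 0.063 for UVRAG, -0.0073 to 0.087 for WIPI1, -0.045 to 0.049 for ATG2B, -0.054 to 0.030 for ATG3, -0.14 to 0.084 for ATG4C, -0.067 to 0.0031 for ATG4D, -0.00081 to 0.082 for GABARAPL1, -0.084 to 0.016 for SQSTM1, -0.060 to 0.037 for STX17 and -0.036 to 0.082 for EPG5. The cause of these changes was not tested.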
